A study of Mus musculus with 12 samples.

Results

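The 4 miRNAs described here, mmu-miR-146a, mmu-miR-146b, mmu-miR-155, and mmu-miR-132, are known for being induced by inflammatory signals in macrophages. They are written below without the mouse prefix mmu. They were taken by name from the array's own listing, without a threshold on their values, but with earlier results of these data known. They are 4 of the 696 mouse miRNAs on the array and 4 of the 334 detected on at least 1 array and tested. miRNAs were measured at days 1, 3, and 5 of osteoclast differentiation, with 4 independent cultures per day and 1 single-color array per culture. Every culture came from bone marrow of male C57BL/6 mice aged 6 to 8 weeks, from which red cells were lysed and B220/CD45R+ and CD3+ lymphocytes were removed. Every culture, at each day, received 30 ng/ml of M-CSF, on which the precursors depend, and 30 ng/ml of RANKL, the cytokine that turns them into osteoclasts. No culture without RANKL was among the groups compared, so each change below is a change between days of the same treatment. The cells remaining after depletion were a mixture, and in RNA from a whole culture fewer cells of a type and less RNA per cell cannot be told apart.

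A miRNA represses mRNAs that pair with its seed, the bases near its 5′ end, so miRNAs with the same seed share most of their predicted targets. RANK, the receptor for RANKL, signals through the adapter TRAF6 to NFκB, the transcription factor that Toll-like receptors and the interleukin-1 receptor also activate in macrophages. miR-146a is a transcriptional target of NFκB and represses Traf6 and Irak1, which makes it a brake on the pathway that induces it, and miR-146b carries the same seed. miR-155 is processed from a long noncoding transcript that is induced by Toll-like receptor ligands and by interferons, and it represses Socs1 and Inpp5d, which encode negative regulators of cytokine and phosphoinositide signaling. miR-132 is made from the same primary transcript as miR-212 and is induced by CREB signaling and by bacterial lipopolysaccharide.

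The mature sequences show which of the 4 can pair with the same targets. They are those of RefSeq for GRCm38.p6, written 5′ to 3′ with the seed, bases 2 to 8, in capitals, and miR-212-3p, the partner of miR-132, is printed with them. All 5 names matched 1 RefSeq entry each.
miR-146a-5p: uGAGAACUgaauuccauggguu
miR-146b-5p: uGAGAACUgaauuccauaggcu
miR-155-5p: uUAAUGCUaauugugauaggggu
miR-132-3p: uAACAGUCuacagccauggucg
miR-212-3p: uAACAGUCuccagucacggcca

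The 4 miRNAs fell into 3 seed groups. miR-146a and miR-146b shared the seed GAGAACU with each other and with no other mouse miRNA in the RefSeq table, and 20 of their 22 bases were the same. Counted from the 5′ end, and with the base of miR-146a first, their differences were G18A and U21C, both near the 3′ end. miR-132 and miR-212-3p shared the seed AACAGUC only with each other, and 17 of their 22 bases were the same, the differences from miR-132 to miR-212-3p being A10C, C14U, U17C, U20C, and G22A. No other RefSeq miRNA of the mouse had the seed of miR-155.

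The genes lay at 4 places in the genome. miR-146a is encoded by Mir146 at chr11:43374435-43374456 on the minus strand, within no other gene listed in the annotation table. miR-146b is encoded by Mir146b at chr19:46342790-46342811 on the plus strand, inside the long noncoding RNA gene Gm36493, and miR-155 by Mir155 at chr16:84714143-84714165 on the plus strand, inside its host long noncoding RNA gene Mir155hg. miR-132 lay at chr11:75173723-75173744 and miR-212-3p at chr11:75173443-75173464, both on the plus strand, and the 2 precursor genes were neighbors with 203 bases between them. The table lists whole genes, so exons and introns were not assigned.

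The array read each of the 4 with 2 probes of 10 spots each, complementary to the 3′ part of the miRNA, where miR-146a and miR-146b differ. The shorter probes of these 2 miRNAs, of 18 bases, differed from each other at the same places as the longer ones. The longer probes are shown, with the 2 of 19 bases that differ in capitals.
miR-146a probe: aAccCatggaattcagttc
miR-146b probe: aGccTatggaattcagttc
Both probes were fully complementary to bases 4 to 22 of their own miRNA. How far either probe also captured the other miRNA was not tested. The opposite-strand product miR-146b* was on the array and was detected on 0 of 12 arrays, with all of its mean probe signals below 0, and the opposite-strand products of the other 3 were not analysed here.

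Between 186 and 276 miRNAs per array were detected by the scanner software. The array of day 5 replicate 4 stood apart with 186, the fewest of all 12, and the day 5 changes are given with and without it. The summed signal of all miRNAs was 58.6% of the day 1 level at day 3 and 80.7% at day 5. All day 3 arrays lay on a slide of their own, scanned separately, and all day 1 and day 5 arrays shared the other slide, so that day 3 and its slide cannot be told apart, whereas day 5 against day 1 is a comparison within 1 slide. Of the myeloid markers, miR-223, miR-142-3p, and miR-142-5p were detected on all 12 arrays. Their normalized signals summed to 98968 to 107910 units at day 1, 77279 to 88317 at day 3, and 83340 to 96010 at day 5. Erythroid miR-451 and miR-144 summed to 25488 to 38092 units of normalized signal at day 1, 1285 to 2139 at day 3, and 136 to 268 at day 5, and miR-126-3p and miR-126-5p, markers of megakaryocytes and endothelium, to 579 to 956, 19 to 51, and 10 to 35. In the lymphoid list miR-150 was detected on all 4 arrays of day 1 and on none of days 3 and 5, although the sum of the 3 listed miRNAs overlapped between days. The 5 stromal miRNAs (miR-214, miR-143 and miR-145, and both arms of miR-199a) summed to 437 to 666, 591 to 669, and 2600 to 3630 units.

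All 4 miRNAs changed over the 3 days by the moderated F test of limma at an adjusted p under 0.01, a test that 62.9% of the 334 tested miRNAs passed. On the normalized scale they followed 3 courses. miR-146a was level from day 1 to day 3 and then rose more than 2-fold. miR-146b stepped down by day 3, and its change from day 3 to day 5 did not pass the test, although it did without normalization. miR-155 and miR-132 fell below detection at day 3 and came back in part by day 5. At the end of differentiation the pair with a common seed had therefore moved in opposite directions, with miR-146a above its day 1 level and miR-146b below it.

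**Figure D1:**
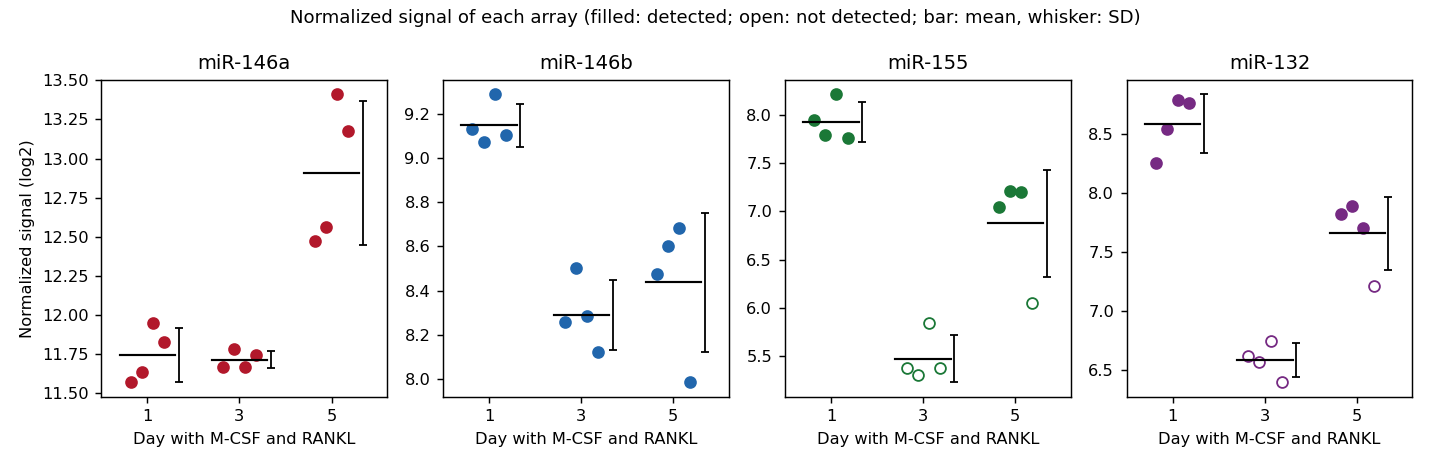
Quantile-normalized total signal on the log2 scale (vertical axes, scaled separately for each miRNA) by day with M-CSF and RANKL, 1 symbol per array in replicate order. Filled symbols are arrays on which the miRNA was detected, open symbols arrays on which it was not, horizontal bars the day means, and whiskers the SD of 4 arrays. miR-146a is high only at day 5, miR-146b only at day 1, and miR-155 and miR-132 have their lowest values at day 3, where all symbols are open.

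miR-146a, the NFκB target that restrains TRAF6 signaling, was the only 1 of the 4 to end above its starting level. Its normalized log2 signal was 11.57, 11.64, 11.95, and 11.83 on the arrays of day 1 replicates 1 to 4, 11.67, 11.78, 11.67, and 11.74 at day 3, and 12.47, 12.56, 13.41, and 13.17 at day 5. Every day 5 array lay above every array of the earlier days, while days 1 and 3 overlapped. Day 5 exceeded day 1 by 1.16 on the log2 scale (SE 0.20, limma adjusted p = 0.000343), a 2.23-fold difference, and day 3 by 1.19 (SE 0.20, limma adjusted p = 0.000915). Each difference had an exact two-sided permutation p of 0.0286, the smallest that 4 arrays against 4 allow, which restates that the arrays did not overlap. Without day 5 replicate 4 the differences were 1.05 and 1.08 (limma adjusted p = 0.00127 and 0.00285). The order of days was day 5 above days 1 and 3, whose means of 11.75 ± 0.17 and 11.72 ± 0.06 (SD, n = 4) differed by less than their spread (limma adjusted p = 0.906). The day 5 cultures themselves varied most, at 12.90 ± 0.46 (SD, n = 4), with replicates 3 and 4 above replicates 1 and 2.

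The signal before normalization showed the same late rise from a lower day 3. The total signal of miR-146a was 5355, 4694, 4831, and 3714 scanner units on the day 1 arrays, 2435, 2186, 2102, and 2159 at day 3, and 7941, 6343, 10943, and 10023 at day 5. On this scale day 3 averaged 47.8% of day 1 and day 5 averaged 190% of it, and no 2 days overlapped. The level step from day 1 to day 3 is therefore a property of the normalized scale, on which all arrays have the same distribution. Without normalization the change from day 1 to day 3 was −1.06 (limma adjusted p = 0.00058), beside a median of −0.78 over all 334 miRNAs. The rise from day 1 to day 5 was 0.90 on that scale, beside a median of −0.50. Stromal miRNAs rose over the same interval as miR-146a: 4 of the 5 listed were higher at day 5 than at day 1 at an adjusted p under 0.01, where 31.7% of all tested miRNAs were, their sum is given above, and miR-145 was detected on 0 arrays of day 5. Their part in the rise of miR-146a was not tested.

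miR-146b, with the same seed, fell early and ended below its day 1 level. Its total signal before normalization was 839, 651, 847, and 553 scanner units at day 1, 225, 216, 199, and 212 at day 3, and 432, 361, 410, and 298 at day 5. No 2 days overlapped on that scale, with day 3 at 29.5% and day 5 at 51.9% of day 1. Its normalized log2 signal was 9.13, 9.07, 9.29, and 9.10 at day 1, 8.26, 8.50, 8.28, and 8.12 at day 3, and 8.48, 8.60, 8.68, and 7.99 at day 5. All day 1 arrays lay above all arrays of the later days, and days 3 and 5 overlapped, with both the highest and the lowest of these 8 values at day 5. Relative to day 1 the level was lower by 0.86 on the log2 scale at day 3 (SE 0.15, limma adjusted p = 0.00053), or 1.81-fold, and by 0.71 at day 5 (SE 0.15, limma adjusted p = 0.00144), or 1.64-fold. Days 3 and 5, at 8.29 ± 0.16 and 8.44 ± 0.31 (SD, n = 4), differed by 0.15 (limma adjusted p = 0.553). This late step depended on the scaling: it was a rise of 0.80 without normalization (limma adjusted p = 0.00405), beside a median of 0.36 over all miRNAs, and 0.64 with the values deposited by the authors (limma adjusted p = 0.0293). The lowest day 5 value came from replicate 4, and without that array the day 5 level was 0.57 below day 1 (limma adjusted p = 0.000809) and 0.31 above day 3 (limma adjusted p = 0.0455). With the values deposited by the authors the fall to day 5 was 0.62 and missed the threshold (limma adjusted p = 0.0193).

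Within arrays, the change of miR-146a was compared with that of miR-146b, which removes any factor common to the whole array. miR-146a gained 0.83 (SE 0.09) on miR-146b from day 1 to day 3 and 1.04 (SE 0.31) from day 3 to day 5 on the log2 scale, and 1.87 (SE 0.31) from day 1 to day 5. For each of the 3 intervals the arrays of the 2 days did not overlap (exact permutation p = 0.0286, adjusted p = 0.0429 over 18 comparisons between pairs of the 4 miRNAs). The unnormalized signals gave a gain of 1.84 (SE 0.24) from day 1 to day 5, a 3.58-fold shift of the ratio. The divergence of the 2 miRNAs with the same seed was thus as large without normalization as with it.

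miR-155 fell below detection at day 3. Its total signal before normalization was 360, 284, 391, and 212 scanner units on the day 1 arrays, 39.4, 27.4, 40.3, and 20.1 at day 3, and 129, 107, 133, and 16.4 at day 5. Detection was complete at day 1 (4 of 4 arrays), absent at day 3 (0 of 4), and 3 of 4 at day 5, the exception being replicate 4, whose value was below those of day 3. The day means were 10.2% of day 1 at day 3 and 30.9% at day 5. On the normalized log2 scale the arrays read 7.94, 7.79, 8.21, and 7.76 at day 1, 5.38, 5.30, 5.84, and 5.38 at day 3, and 7.04, 7.21, 7.20, and 6.05 at day 5. No 2 days overlapped on this scale, and the order was day 1, then day 5, then day 3.

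From day 1 to day 3 the normalized level of miR-155 fell by 2.45 on the log2 scale (SE 0.25, limma adjusted p = 1.21e-05). Because day 3 has no detected value, the fold is given with day 3 set to a limit. Each day 3 array was first set to the lowest signal of any miRNA detected on it, or to the measured value if that was higher. Day 1 was then 4.55-fold above day 3. The lowest detected signal of other miRNAs is not a detection limit for miR-155, so this is not a strict lower bound. Where the limit was instead the 5th percentile of signals marked as detected, the fold was 1.65.

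The return of miR-155 between day 3 and day 5 was 1.40 on the log2 scale (SE 0.25, limma adjusted p = 0.00155). With day 3 set to the first limit it was 2.20-fold, and the stricter limit left no rise. The day 5 mean includes replicate 4, on which miR-155 was not detected, so the 2.20-fold is not a strict lower bound. Without day 5 replicate 4 it was 1.43 (limma adjusted p = 7.18e-05). This return did not pass the threshold under the other scalings of the arrays: it was 0.54 when the 75th percentile over the 148 miRNAs found on every array set the scale (limma adjusted p = 0.522), 0.86 with their median (limma adjusted p = 0.279), and 1.28 without normalization (limma adjusted p = 0.147). Day 5 was 1.05 below day 1 (SE 0.25, limma adjusted p = 0.00368) on the normalized scale. Without day 5 replicate 4 this difference was 0.76 (limma adjusted p = 0.000852), while without day 1 replicate 1 or replicate 3 the adjusted p from limma was 0.0103 or 0.0118, just past the threshold. The fall from day 1 to day 5 was larger and less certain without normalization, at 2.03 (limma adjusted p = 0.0142).

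miR-132, the CREB-responsive miRNA, was also lost at day 3. Its total signal was 467, 453, 613, and 413 scanner units at day 1, 80.7, 64.3, 65.8, and 75.7 at day 3, and 272, 204, 185, and 155 at day 5. The software detected it on 4, 0, and 3 arrays of days 1, 3, and 5, again missing it on day 5 replicate 4. The 3 days were separate before normalization, with day 3 at 14.7% and day 5 at 41.9% of day 1. They were also separate after it, the log2 values being 8.26, 8.55, 8.80, and 8.77 at day 1, 6.61, 6.57, 6.74, and 6.39 at day 3, and 7.83, 7.89, 7.71, and 7.21 at day 5. The order was thus day 1 above day 5 above day 3, as for miR-155.

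All 3 steps of miR-132 passed the test. The level fell by 2.01 on the log2 scale from day 1 to day 3 (SE 0.17, limma adjusted p = 2.48e-06), a measured 4.04-fold. The first limit hardly moved this, to 4.01-fold, and does not give a strict lower bound, while the stricter limit gave 2.63-fold. It rose by 1.08 from day 3 to day 5 (SE 0.17, limma adjusted p = 0.000674), and by 1.16 without day 5 replicate 4 (limma adjusted p = 0.000208). With day 3 set to the first limit the rise was 2.10-fold, or 1.37-fold with the stricter limit. These are not strict lower bounds, because the day 5 mean includes replicate 4, on which miR-132 was not detected. Day 5 ended 0.93 below day 1 (SE 0.17, limma adjusted p = 0.000571), and without replicate 4 of day 5 it ended 0.81 below (limma adjusted p = 0.000553). Each step kept its direction and its side of the threshold under every alternative that gave a value for it. The rise to day 5 ranged from 0.42 to 1.49 on the log2 scale across those that did not leave out an array.

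Erythroid, megakaryocytic, and endothelial marker miRNAs also fell in signal or detection between day 1 and day 3, with the values given above. The sum of the myeloid markers was lower at day 3 as well. Among them miR-223 changed by −0.44 (limma adjusted p = 2.95e-05), while miR-142-3p and miR-142-5p did not pass (limma adjusted p = 0.555 and 0.998). The lymphoid list was mixed over this interval. miR-150 changed by −3.02, which did not pass (limma adjusted p = 0.077), and miR-181a by −0.96 (limma adjusted p = 0.00025). miR-181b rose by 0.79 (limma adjusted p = 0.000389). The part of any of these markers in the falls of miR-146b, miR-155, and miR-132 was not tested. For the sum of the erythroid pair the day 5 range lay below that of day 3. For the sum of miR-126-3p and miR-126-5p the day 5 range overlapped that of day 3.

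**Figure D2:**
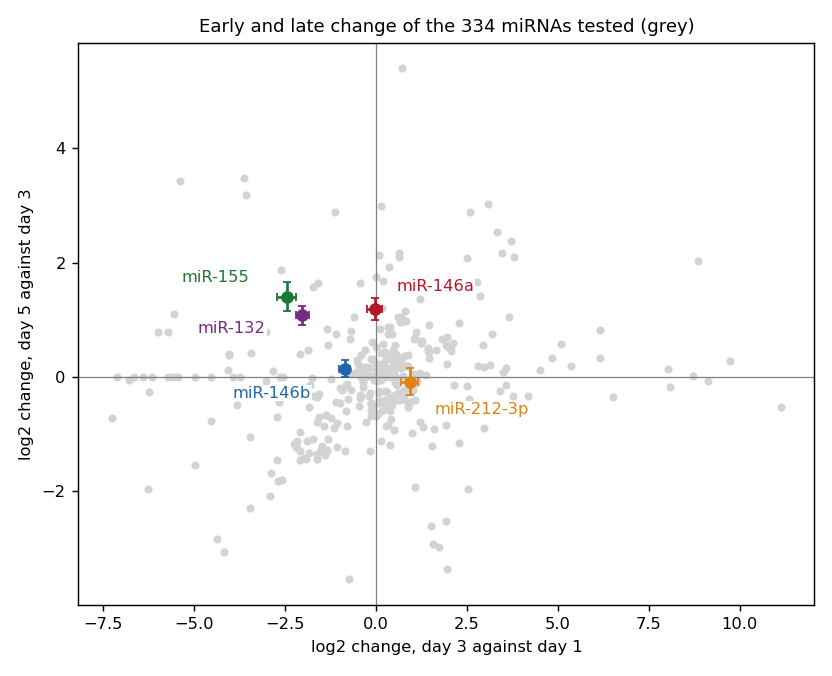
Change from day 1 to day 3 (horizontal) and from day 3 to day 5 (vertical), both on the normalized log2 scale, for the 334 tested miRNAs (grey) and for the 4 miRNAs and miR-212-3p (colored, bars show the SE). Both axes share the day 3 arrays. miR-155 and miR-132 lie at the upper left, lower at day 3 and higher again at day 5, miR-146a lies above the center, and miR-146b and miR-212-3p lie near the horizontal zero line on either side of it.

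How common each course was can be read from all tested miRNAs. In day 3 against day 1, 3 of the 4 were lower and 0 higher at an adjusted p under 0.01, where 25.1% of the tested miRNAs were lower, 27.2% higher, and 52.4% passed in either direction. The change was over 2-fold for 2 of the 4, miR-155 and miR-132, and for 35.0% of the tested miRNAs, and the arrays of both days did not overlap for 3 of the 4 and for 59.6% of the tested miRNAs. The median change of the 4 was −1.44 on the log2 scale beside 0.18 for all 334. In day 5 against day 3, 3 of the 4 were higher and 0 lower, where 14.7% of the tested miRNAs were higher, 10.8% lower, and 25.4% passed in either direction, with a median change of 1.13 beside 0.0. The same 3 changed more than 2-fold, as did 10.5% of the tested miRNAs, and had arrays without overlap, as did 39.2%. For miR-155 this separation held on the normalized scale only. Before normalization day 5 replicate 4, where it was not detected, read 16.4 scanner units, below every day 3 array. In day 5 against day 1, 1 was higher and 3 were lower, where 31.7% and 29.0% of the tested miRNAs were and 60.8% passed in either direction, and the median was −0.82 beside 0.11. The change was over 2-fold for miR-146a and miR-155, and for 46.7% of the tested miRNAs. All 4 had arrays without overlap, as did 62.6%, so that a separation of day 5 from day 1 was the rule on this array. The day 3 arrays enter both of the first comparisons, and the counts of these are not independent.

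The dip at day 3 was counted over all tested miRNAs. In all, 7 of the 334 miRNAs, or 2.1%, fell from day 1 to day 3 and rose from day 3 to day 5, each at an adjusted p under 0.01: miR-130a, miR-132, miR-155, miR-194, miR-30c-1*, miR-340-5p, and miR-450a. These names other than miR-132 and miR-155 were chosen after their values were seen. In 3 of the 7, or 0.898% of those tested, day 5 was also below day 1. Of the 223 miRNAs detected on all day 1 arrays, 25, or 11.2%, were detected on no day 3 array, and 6 of these, or 2.69%, were detected again on at least 3 arrays of day 5, namely miR-130a, miR-132, miR-155, miR-181c, miR-342-5p, and miR-503. Of these names, miR-130a, miR-342-5p, and miR-503 were likewise chosen after their values were seen.

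The falls of miR-146b, miR-155, and miR-132 from day 1 to day 5 were compared within arrays. The change of miR-155 minus that of miR-132 was −0.11 (SE 0.20) on the log2 scale (exact permutation, adjusted p = 0.675 over 18 comparisons). That of miR-146b minus that of miR-155 was 0.34 (SE 0.14, adjusted exact permutation p = 0.0429), and minus that of miR-132 it was 0.22 (SE 0.13, adjusted exact permutation p = 0.206). These differences include day 5 replicate 4, on which miR-155 and miR-132 were not detected. Without that array the changes were −0.57 for miR-146b, −0.76 for miR-155, and −0.81 for miR-132, and their differences were not tested. The sizes of the changes to and from day 3 were not ranked against each other, because miR-155 and miR-132 have no detected value at day 3.

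**Figure D3:**
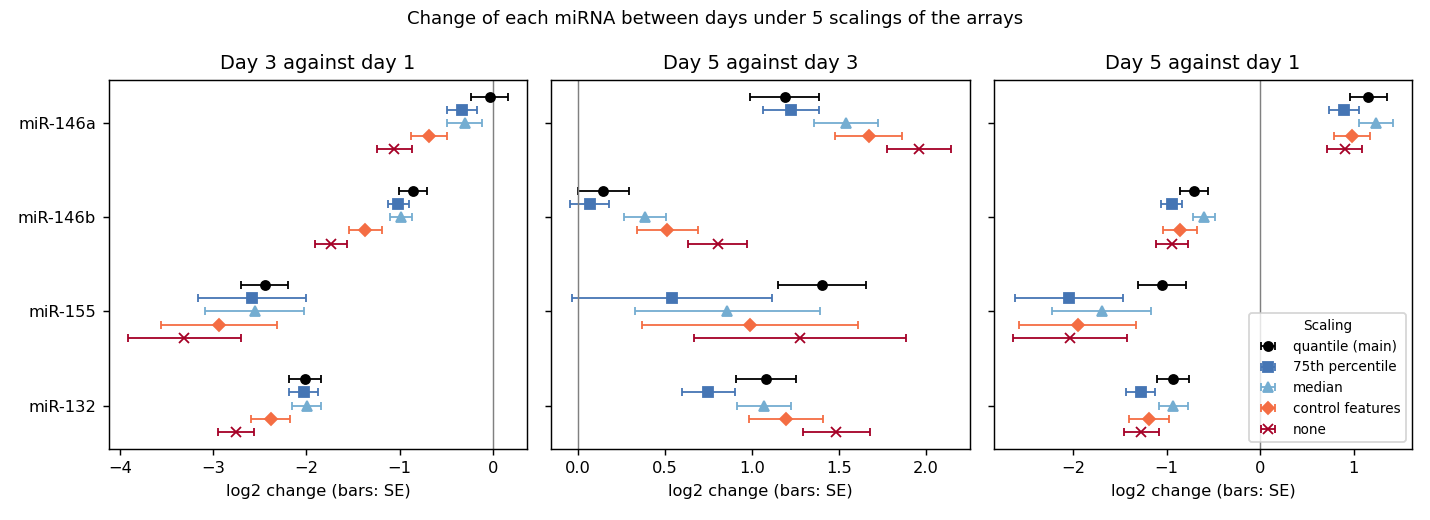
Change of each miRNA between days on the log2 scale (horizontal) with quantile normalization and with 4 other scalings of the same signals, bars showing the SE from the fit. The miR-146a points move below 0 from day 1 to day 3 as less normalization is applied, and the miR-155 bars are wide under all scalings other than quantile, while no point of miR-132 or of the day 5 against day 1 comparison changes side.

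The scalings differed in where they put day 3. Without normalization the median of all miRNAs moved by −0.78 on the log2 scale at day 3 and by −0.50 at day 5, relative to day 1. With scaling to the control features dmr_285 and dmr_31a, chosen after the data had been seen, it moved by −0.41 and −0.42. These features read 77.3% and 74.7% of their day 1 signal at day 3. The control features dmr_3 and dmr_6, which did not enter the scaling, read 104% and 106%. The sources do not say whether any of these features were added in known amounts. Relative to the median of all miRNAs, the day 3 change was −0.21 for miR-146a, −1.04 for miR-146b, −2.63 for miR-155, and −2.20 for miR-132 with quantile normalization, and −0.28, −0.96, −2.54, and −1.98 without normalization. The 2 scales differed more elsewhere, with −0.82 and −0.44 for miR-146b in day 5 against day 1, and 1.40 and 0.91 for miR-155 in day 5 against day 3.

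The 2 probes of each miRNA gave a check that the total signal hides. For miR-146a the longer and the shorter probe changed by 1.18 and 1.13 on the log2 scale from day 1 to day 5, and for miR-132 both changed by −0.93. No test was run on single probes. For miR-146b both were lower at day 5, with −0.65 for the longer and −1.17 for the shorter. On day 5 replicate 4 the longer stood at −1.03 and the shorter at −2.99 relative to its own day 1 mean. On the other 3 day 5 arrays the longer lay at −0.63 to −0.41 and the shorter at −0.63 to −0.48. At day 3 the shorter probe averaged only 44.2 scanner units. For miR-155 the probes disagreed in size from day 1 to day 5, with −0.41 for the 18-base probe and −2.41 for the 17-base probe. The disagreement lay in day 5 replicate 4, where the 17-base probe was at the floor of the scale, at −6.68 relative to its day 1 mean, and the 18-base probe was 0.32 above its own. On the other 3 day 5 arrays both were below their day 1 mean, the 18-base probe at −0.72 to −0.56 and the 17-base probe at −1.13 to −0.83. From day 1 to day 3 the 18-base and 17-base probes of miR-155 changed by −2.22 and −3.65, and from day 3 to day 5 by 1.81 and 1.24.

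**Figure D4:**
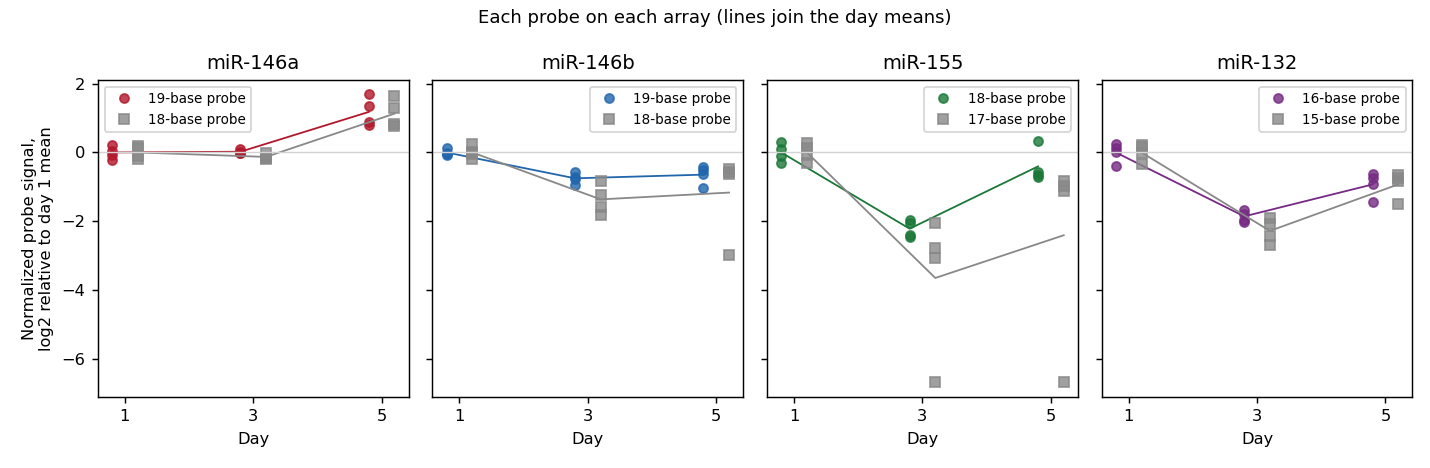
Normalized signal of each probe on each array, log2 relative to the mean of that probe at day 1 (vertical), by day, colored for the longer and grey for the shorter probe, with lines joining the day means. The 2 probes of each miRNA keep the same direction in every day mean that differs clearly from day 1, and the 17-base probe of miR-155 drops to the floor on 1 array of day 3 and 1 of day 5.

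miR-212-3p, from the same transcript as miR-132 and with the same seed, did not follow its neighbor. Its total signal was 226, 159, 248, and 227 scanner units at day 1, 281, 181, 247, and 185 at day 3, and 443, 275, 266, and 262 at day 5, and replicate 4 of day 5 was the only array without detection. Days 1 and 3 overlapped widely and day 5 lay higher, without overlap with day 1. On the normalized log2 scale it was higher than at day 1 by 0.93 at day 3 (SE 0.23, limma adjusted p = 0.00528) and by 0.85 at day 5 (SE 0.23, limma adjusted p = 0.00749). On this scale the arrays overlapped in both comparisons, by 1 array of day 1, and without normalization the day 3 difference was 0.052 (limma adjusted p = 0.869). For day 5 against day 1 the call was lost under 10 of 15 alternatives that kept every array of both days, such as no normalization (0.52, limma adjusted p = 0.0748), and under 8 of 12 that left out 1 array. No direction is therefore given for either change.

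The contrast between the 2 neighbors was read as a ratio within arrays, which no scaling of a whole array can alter. In the unnormalized signals the ratio of miR-132 to miR-212-3p changed by −1.79 (SE 0.16) from day 1 to day 5 on the log2 scale, and the arrays of these days did not overlap. For day 3 no size is given, as miR-132 was detected on none of its arrays. As the ratio was chosen after its values were seen, no test is given. The probes of miR-212-3p were only 13 and 14 bases long, and both gave the same course.

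**Figure D5:**
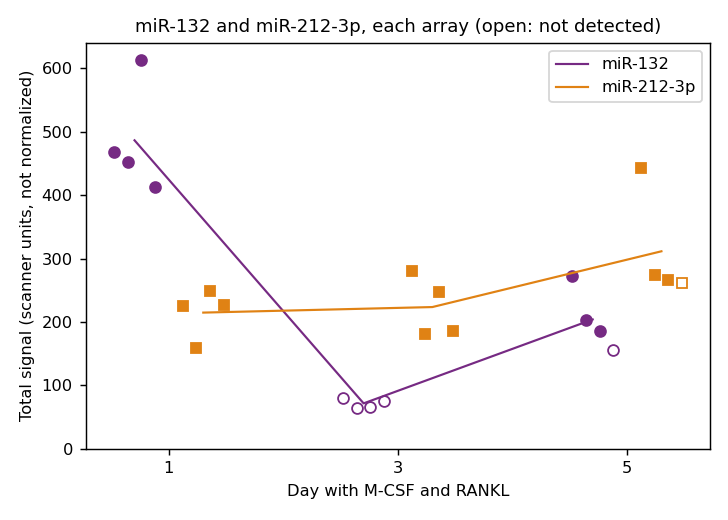
Total signal in scanner units before any normalization (vertical, from 0) of miR-132 and miR-212-3p by day, 1 symbol per array, filled where detected and open where not, with lines joining the day means. miR-132 is lowest on all 4 arrays of day 3, while the day 3 arrays of miR-212-3p lie within or just above its day 1 range. Levels of the 2 miRNAs cannot be set against each other because each has its own probes.

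Other miRNAs known from the inflammatory response of macrophages were read from a list. Of 17 on the array, 13 were tested, and miR-9, miR-147, miR-187, and miR-124 were detected on 0 arrays. Between day 1 and day 3, 7 of the 13 were higher and 2 lower at an adjusted p under 0.01, where 27.2% and 25.1% of all tested miRNAs were, with a median of 0.93 on the log2 scale beside 0.18. Between day 1 and day 5 again 7 were higher and 2 lower, where 31.7% and 29.0% of all were, with a median of 0.85 beside 0.11. Between day 3 and day 5, 3 were higher and 0 lower, where 14.7% and 10.8% of all were, with a median of 0.069 beside 0.0. The list includes miR-212-3p.

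The members of this list differed in course. miR-125b-5p, which targets Tnf, and miR-99b, let-7e, and miR-125a-5p, which are made from 1 cluster, were higher at day 5 than at day 1 by 2.51 (SE 0.08), 2.49 (SE 0.13), 2.38 (SE 0.24), and 1.92 (SE 0.27), with miR-99b detected on 2 of 4 arrays at day 1 (limma adjusted p = 3.79e-10, 2.36e-08, 6.74e-06, and 7.5e-05). miR-98 was higher by 1.27 (SE 0.16) and miR-221 by 0.41 (SE 0.08). miR-21, which many inflammatory stimuli induce, differed by 0.21 (SE 0.07, limma adjusted p = 0.0185), let-7i by 0.20 (limma adjusted p = 0.0223), and miR-222 by 0.05 (limma adjusted p = 0.785), none of which passed, and neither did miR-511-5p, detected on 1 array. The 2 that fell were miR-223, by 0.43 (SE 0.05, limma adjusted p = 2.28e-05), and miR-181c, by 1.94 (SE 0.22, limma adjusted p = 1.81e-05), the latter detected on 4, 0, and 3 arrays of days 1, 3, and 5, the same detection pattern as miR-155 and miR-132.

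The miRNAs with courses most like each of the 4 were found by the root mean square difference of centered log2 values over the 12 arrays, among those detected on all 12. miR-30a (0.26), miR-532-5p (0.26), and miR-29a (0.30) were nearest to miR-146a, and all 3 also rose from day 3 to day 5, by 0.84 to 0.87. miR-93 (0.20), miR-25 (0.24), and miR-223 (0.25) were nearest to miR-146b, and each was lower at both later days. The nearest to miR-155 were miR-146b (0.72), miR-181a (0.77), and miR-340-5p (0.80), and those to miR-132 were miR-146b (0.53), miR-181a (0.54), and miR-2145_v16.0 (0.60). The condition of detection on all 12 arrays leaves out every miRNA lost at day 3 as miR-155 and miR-132 were. Whether the larger values of these 2 come from this was not tested. All values are from the same 12 arrays and are a description only.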

How the data were processed

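Arrays were grouped by the day given in the labels. The scanner files that the authors deposited give, for each miRNA, a total signal summed over its probes and a mark of detection. These linear intensity values were made by the authors with Feature Extraction 9.5.3.1 after background subtraction, and arrays had not been normalized to each other. The authors also deposited a table of quantile-normalized log2 values that is empty wherever a miRNA went undetected, used here only as an alternative. The array annotation names mm9, while all coordinates printed are from RefSeq tables of GRCm38.p6.

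Quantile normalization with limma 3.58.1 (R 4.3.3) was applied to the total signals of 334 mouse miRNAs, those with detection on 1 or more arrays. Values under 1, 372 in all or 9.28%, were set to 1 before log2 was taken. The day means were fitted with lmFit and eBayes, and a change was called at an adjusted p under 0.01 (Benjamini and Hochberg over all 334). Single miRNAs were also compared by exact two-sided permutation of 4 arrays against 4, and pairs of miRNAs by the same test on within-array differences, adjusted over 18. The methods name 4 independent cultures for each day, and whether cultures of different days were paired is not settled. The p-values are set against the spread between arrays of a day, which holds culture and measurement variation together. In comparisons with day 3 the slide difference is part of the change tested. Precision is limited by 4 arrays per day. The smallest SD of the log2 difference between any 2 arrays was 0.222, so none was counted as a duplicate.

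The members and lists were chosen with earlier results of these data known. Genes named are the 4 members, other products of their precursors and the cluster partner, the 3 miRNAs nearest to each member, and miRNAs of the inflammatory and marker lists. The other miRNAs named with the counts of the day 3 dip and of lost detection were chosen after their values were seen. Alternatives changed the filter, the scaling, the background correction (normexp with an offset of 50), the spot signal, the floor (0.1), the test (limma with an intensity trend, the methods' one-way analysis of variance), the threshold (0.05), the replicate number as a block, days 1 and 5 alone, and the arrays included. Scaling to control features and the values of miR-212-3p under alternatives were added after seeing the data. The fit was tested on simulated data. Permutation tests ran in scipy 1.17.1 and figures in matplotlib 3.10.9, under Python 3.11.15 (numpy 2.4.6, pandas 2.3.3).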

Additional observations from a re-analysis of the deposited data

Results flagged for a closer look

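Within each day the 4 arrays of every miRNA were searched for an extreme value by the gap to the nearest array as a share of the whole range, with a critical value of 0.829 for 4 arrays. Of 15 groups searched, 2 exceeded it, both for miR-155, and chance flags about 1 in 20 groups. On day 3 replicate 3 stood above the other arrays (share 0.853, log2 value 5.84), on a day when miR-155 was detected on no array. On day 5 replicate 4 stood below the other arrays (share 0.855, log2 value 6.05), and it was the only array of that day on which miR-155 was not detected and the array with the fewest detected miRNAs of all, 186. Both day 5 comparisons of miR-155 without this array are given in the text above.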

How the results depend on the processing

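Of 346 values of 13 results under alternatives, 324 kept their direction and their side of the threshold, 18 lost the threshold, 2 newly passed it, and 2 turned direction. Causes were not tested. Of the 4 miRNAs, 2 passed the F test when testing was limited to miRNAs with detection on every array and with the authors' deposited values, since miR-155 and miR-132 have no value at day 3 in either. For miR-146a, day 3 against day 1 passed without normalization (−1.06, limma adjusted p = 0.00058) and ranged from −0.095 to 0.044 when 1 array was left out, turning positive without day 1 replicate 3 or 4. For miR-146b, day 5 against day 1 missed the threshold with the 75th percentile of all miRNAs (−0.64, adjusted p = 0.0137) and with the authors' deposited values (−0.62, adjusted p = 0.0193), and day 5 against day 3 passed without normalization (0.80, adjusted p = 0.00405). For miR-155, day 5 against day 1 missed it with no filter (−1.37, adjusted p = 0.127), the 75th percentile of all miRNAs (−1.73, 0.0436), the median (−1.70, 0.0171), no normalization (−2.03, 0.0142), control features (−1.95, 0.0191), and days 1 and 5 alone (−1.05, 0.0128), and ranged from −1.15 to −0.76 with 1 array left out. For miR-155, day 5 against day 3 missed it with no filter (1.24, adjusted p = 0.296), the 75th percentile of detected (0.54, 0.522) or all miRNAs (0.78, 0.454), the median (0.86, 0.279), no normalization (1.28, 0.147), and control features (0.99, 0.311). For miR-212-3p, day 5 against day 3, −0.082 as reported, was positive with the median (0.049), no normalization (0.47), control features (0.18), the authors' deposited values (0.29), and without day 5 replicate 4 (0.045), and ranged from −0.23 to 0.045 with 1 array left out.

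Counts over all miRNAs moved by over 1.5 times under the first of these settings (114 against 210 by the F test, 109 against 203 for day 5 against day 1, and 80 against 175 for day 3 against day 1), with the 75th percentile of all miRNAs (40 against 85 for day 5 against day 3), and with the authors' deposited values (115 against 175 for day 3 against day 1). The number tested also differed, at 148 under the first setting and 220 for that comparison of the authors' values, against 334 as reported. Where fewer were tested, the counts alone do not show a smaller share of calls. Higher and lower calls for day 3 against day 1 numbered 91 and 84 as reported, 29 and 124 without normalization, and 34 and 90 with control features. For day 5 against day 1 they numbered 106 and 97, 65 and 103, and 73 and 99, and for day 5 against day 3 49 and 36, 81 and 5, and 51 and 13, in the same order. For these miRNAs the signal over background, not the number of arrays alone, limits day 3, where the median error given by the scanner software was 90.9% of the total signal for miR-155 and 44.6% for miR-132, against 13.8% and 9.69% at day 1.

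With the replicate number as a block, 206 miRNAs passed the F test against 210, 200 against 203 changed between days 1 and 5, 176 against 175 between days 1 and 3, and 74 against 85 between days 3 and 5, and no call on the 4 miRNAs changed. The block moved the calls of miR-212-3p to the other side of the threshold for day 5 against day 1 (adjusted p = 0.0195) and day 3 against day 1 (adjusted p = 0.0144). The deviations of same-numbered arrays correlated between −0.44 and 0.70 over 12 pairs. Of the 12 arrays, 7 were closest, among arrays of other days, to an array of their own number. No chance level was worked out for this, so it does not settle whether the numbers pair the cultures. The main fit left the numbers out, and the calls with them as a block are those given here.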
